A study of Homo sapiens with 16 samples.

Results

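The ID proteins and a set of SMAD pathway genes were followed over time in SUM225 cells treated with 1 µM CP724,714. The set held 10 genes: ID1, ID2, ID3 and ID4, the signal transducer SMAD3, the inhibitory SMAD6 and SMAD7, the pseudoreceptor BAMBI, the ligand TGFB2 and the receptor TGFBR2. Every probe of the array table that carried one of these symbols was used, which gave 12 of the 24526 probes and 10 of the 18631 gene symbols, since ID1 and TGFBR2 had 2 probes each. SUM225 is a line derived from a HER2-amplified breast cancer, and CP724,714 is a small molecule inhibitor of the HER2 kinase. The labels describe medium with fetal bovine serum, insulin and hydrocortisone, while the study's methods describe serum-free culture without insulin for this line, and which was used for the time course is not settled. The series has 16 time points at intervals of 3 h, from 0 h to 45 h, each with its own culture and 1 Illumina bead array. The 0 h culture is the only one without time in the inhibitor, no untreated course was analysed here, and 1 line was studied, so time in culture and the inhibitor cannot be told apart.

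ID proteins are helix-loop-helix proteins without a DNA-binding region. They pair with E proteins such as TCF3 and TCF12 and keep them from binding DNA with tissue-specific partners, and they are known for holding epithelial and other progenitors in a less differentiated state. Bone morphogenetic proteins (BMPs) act through SMAD1, SMAD5 and SMAD9, for which ID1, ID2 and ID3 are textbook target genes, while TGF-beta and activins act through SMAD2 and SMAD3. SMAD6, SMAD7 and BAMBI dampen these pathways and are themselves induced by them in many cells.

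The regions before the start of ID1, ID3 and SMAD6 are shown. By their brightest probes, these 3 genes had higher signals from 24 h on than from 3 h to 21 h. The region of BAMBI is shown because it is another inhibitor of the pathway that rose. Each sequence is the 250 bases before the RefSeq gene start (assembly GRCh38.p14), read 5′ to 3′ on the strand of the gene. Capitals mark 3 sequences that SMAD proteins are known to bind, searched on both strands. The first is the palindrome GTCTAGAC. The second is GGCGCC, rich in G and C. The third is CAGAC, which reads GTCTG on the opposite strand and is contained in neither of the others. The windows are chr20:31605039-31605288 on the plus strand for ID1, chr1:23559502-23559751 on the minus strand for ID3, chr15:66701986-66702235 on the plus strand for SMAD6 and chr10:28677271-28677520 on the plus strand for BAMBI.
ID1: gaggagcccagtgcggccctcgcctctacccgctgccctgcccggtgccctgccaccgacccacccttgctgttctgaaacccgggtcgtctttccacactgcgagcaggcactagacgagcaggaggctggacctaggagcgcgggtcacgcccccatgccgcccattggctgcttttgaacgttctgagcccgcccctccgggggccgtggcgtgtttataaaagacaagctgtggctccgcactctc
ID3: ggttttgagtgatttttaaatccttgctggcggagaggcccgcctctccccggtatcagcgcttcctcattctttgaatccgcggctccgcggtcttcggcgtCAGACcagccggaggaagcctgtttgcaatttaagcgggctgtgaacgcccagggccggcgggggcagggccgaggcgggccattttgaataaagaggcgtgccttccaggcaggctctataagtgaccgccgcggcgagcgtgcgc
SMAD6: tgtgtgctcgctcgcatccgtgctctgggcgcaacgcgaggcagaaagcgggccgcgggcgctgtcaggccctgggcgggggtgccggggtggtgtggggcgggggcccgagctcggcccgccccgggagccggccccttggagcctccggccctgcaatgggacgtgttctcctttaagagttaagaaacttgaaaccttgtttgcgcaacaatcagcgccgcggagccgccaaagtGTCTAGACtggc
BAMBI: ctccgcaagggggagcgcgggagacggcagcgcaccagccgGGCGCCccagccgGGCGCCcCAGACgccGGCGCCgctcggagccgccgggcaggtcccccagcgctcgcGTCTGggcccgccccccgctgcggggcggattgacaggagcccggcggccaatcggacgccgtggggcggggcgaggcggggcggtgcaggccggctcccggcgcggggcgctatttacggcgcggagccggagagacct

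The window of SMAD6 held GTCTAGAC at positions -12 to -5 from the gene start. This palindrome was in 46 of the 24900 RefSeq windows of the same length at a gene start (0.185%), to which the shares that follow also refer, and in the window of no other of the 10 genes. BAMBI held GGCGCC at 3 places, with CAGAC from -189 to -185 between them and GTCTG from -140 to -136. GGCGCC was in 15.9% of all windows and, of the other genes, in that of SMAD3. CAGAC on either strand was in the windows of 5 of the 10 genes (BAMBI, ID3, ID4, SMAD7 and TGFB2) and in 38.1% of all windows. ID3 held it from -147 to -143. The E-box CAGCTG, a sequence bound by E proteins, was in the windows of ID2 and ID4 and in 13.9% of all windows. None of the 4 sequences was in the window of ID1. These matches are a description of the letters in these windows, and binding was not measured.

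Signals were corrected for background, quantile normalised and given as log2 values. Detection is a detection p-value under 0.05. Of the arrays, 57.5% to 61.5% of probes were detected. By the brightest probe of each gene, all 7 luminal epithelial and HER2 pathway markers checked were detected on all 16 arrays. A dimmer ERBB2 probe (ILMN_1717902) was detected on 12. Of 8 markers of other cell types, COL3A1, PDGFRB and PTPRC were detected on 0 arrays and CD3E and CDH5 on 1. COL1A1 and COL1A2 were detected on 5 and PECAM1 on 16. Precision is limited by the number of arrays. With 1 array per time point, errors were taken from the scatter around a fitted course, and p-values measure only the spread between these arrays. In bulk RNA, fewer cells with a transcript and less of it per cell cannot be told apart.

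Of the 10 genes, 7 had a time-dependent signal in limma's F-test of a cubic course in hours at an adjusted p under 0.05, namely ID1, ID2, ID3, ID4, SMAD6, BAMBI and TGFB2. The share over all 16110 probes tested was 51.3%. The linear change, which is the first-order part of that course expressed as log2 change over 45 h, rose for 7 genes (ID1, ID2, ID3, ID4, SMAD6, BAMBI and SMAD3), fell for TGFB2 and did not pass for SMAD7 and TGFBR2. Over all probes tested, 26.0% rose and 21.7% fell. By the brightest probe of each, the median linear change of the 10 genes was 1.16 log2 units against 0.05 over all probes tested. The genes were chosen with earlier results of these data known, so the counts and this contrast are a description.

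**Figure D1:**
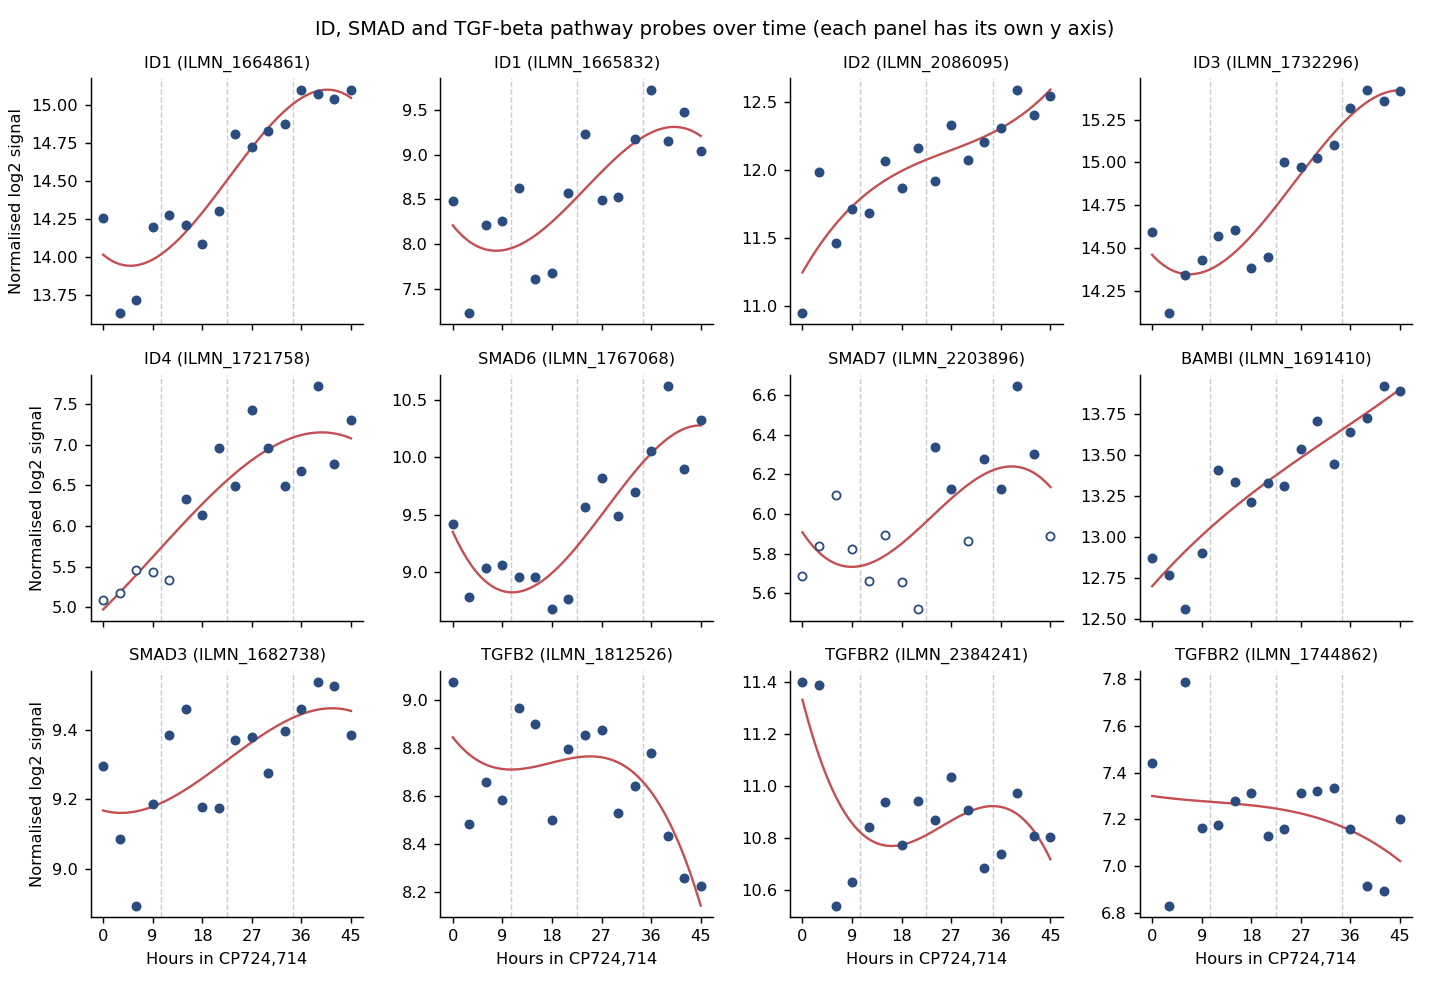
Normalised log2 signal (y axis, its own scale in each panel) of the 12 probes against hours in CP724,714 (x axis), with filled points for arrays on which the probe was detected, open points for arrays on which it was not, a red line for the fitted cubic course and dashed lines between consecutive sets of 4 arrays. The signals of the brighter ID1 probe (ILMN_1664861), ID3 and SMAD6 lie higher from 24 h on than from 3 h to 21 h. Those of the dimmer ID1 probe (ILMN_1665832) overlap between these times. The signal of ID2 is lowest on the 0 h array, and ID4 is detected from 15 h on.

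The brighter ID1 probe (ILMN_1664861) had 9800 to 39589 intensity units, on arrays whose brightest probe reached at least 71727. It had a log2 signal of 14.26 at 0 h and of 13.63, 13.72 and 14.19 at 3, 6 and 9 h. It was 14.28, 14.21, 14.09 and 14.30 from 12 h to 21 h, 14.81, 14.72, 14.83 and 14.87 from 24 h to 33 h, and 15.10, 15.07, 15.04 and 15.10 from 36 h to 45 h. The lowest values were thus at 3 h and 6 h, and all 8 values from 24 h on lay above all 8 earlier ones. The linear change was 1.41 ± 0.13 (SE, adjusted p = 4.76e-08), and the lowest and highest arrays differed 2.77-fold. The dimmer ID1 probe (ILMN_1665832), with at most 895 intensity units, rose by 1.60 ± 0.33 (adjusted p = 0.000494; 1.05 and 0.420 with a term for a step from 21 to 24 h) and was also lowest at 3 h, at 7.23 against 8.49 at 0 h. Its values before 24 h and from 24 h on overlapped, with 8.62 at 12 h and 8.50 at 27 h. Levels of different probes are not comparable.

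The course of ID3 was like that of ID1. Its log2 signal was 14.60 at 0 h, 14.12, 14.34 and 14.43 from 3 h to 9 h, and 14.57, 14.61, 14.38 and 14.45 from 12 h to 21 h. It was 15.00, 14.97, 15.03 and 15.10 from 24 h to 33 h and 15.31, 15.42, 15.36 and 15.42 from 36 h to 45 h. As for the brighter ID1 probe, the lowest value was at 3 h and the values of the earlier and later 8 arrays did not overlap. ID3 had a linear change of 1.24 ± 0.11 (SE, adjusted p = 1.85e-08). Across the 16 arrays, Pearson r between ID1 and ID3 was 0.97, which was for each the highest among the 12344 probes detected on all arrays. These points share the arrays, their order in time and their normalisation, so r is a description.

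The first interval looked otherwise for ID2, whose lowest signal was at 0 h. Its log2 signal was 10.95 at 0 h and 11.98, 11.46 and 11.71 at 3, 6 and 9 h. It was 11.68, 12.06, 11.87 and 12.16 from 12 h to 21 h, 11.92, 12.33, 12.08 and 12.21 from 24 h to 33 h, and 12.31, 12.58, 12.40 and 12.54 from 36 h to 45 h. All 15 later arrays lay above the 0 h array, and the later sets of 4 overlapped with their neighbours. The 3 h array minus the 0 h array was 1.04 for ID2, -0.63 for ID1 and -0.47 for ID3. These are single differences without a test, and the root mean square of that step over all probes tested was 0.35. ID2 was the 1 gene of the 10 past 1.7-fold of the 0 h array at 3 h, at 2.05-fold. By its brightest probe no gene was below it by 1.7-fold, while the dimmer ID1 probe was 2.39-fold below, and 1.82% of probes were above and 2.43% below. Over 45 h the linear change of ID2 was 1.15 ± 0.16 (SE, adjusted p = 6.45e-06), and at 45 h it was 3.02-fold its 0 h level. Its r with ID1 was 0.66.

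**Figure D2:**
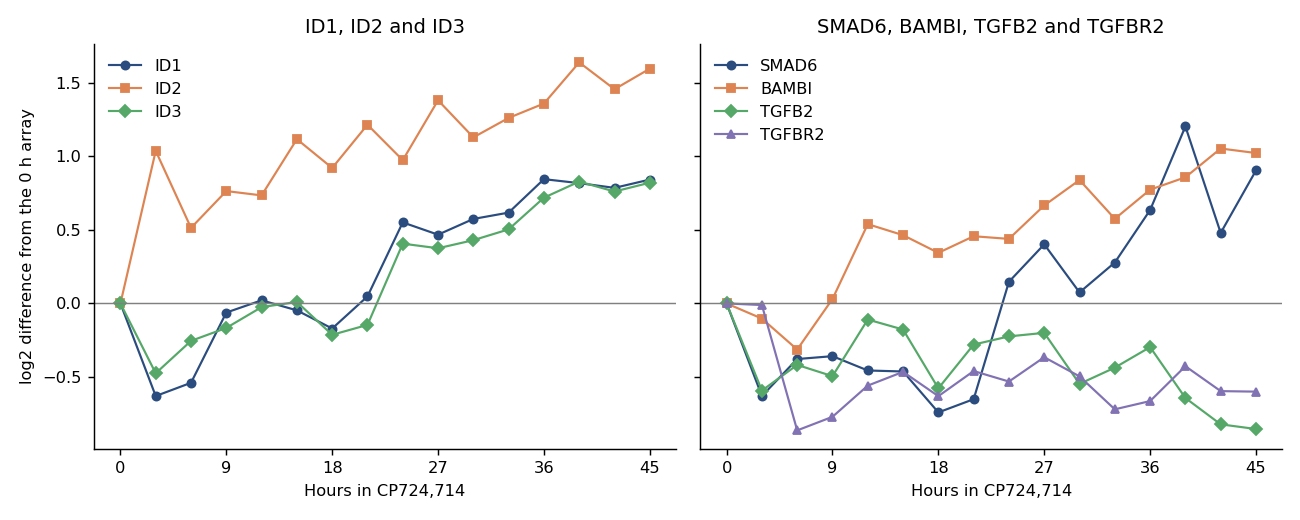
Log2 difference from the 0 h array (y axis) against hours in CP724,714 (x axis), with 1 line per gene and 1 array per point, for ID1, ID2 and ID3 on the left and SMAD6, BAMBI, TGFB2 and TGFBR2 on the right. ID2 stands at 1.04 at 3 h where ID1 stands at -0.63 and ID3 at -0.47, and TGFBR2 moves from -0.01 at 3 h to -0.86 at 6 h.

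ID4 was not detected on the 5 arrays from 0 h to 12 h and was detected on all 11 arrays from 15 h to 45 h. Its log2 signal was 5.09 to 5.46 on the former, and its lowest, median and highest values on the latter were 6.13, 6.76 and 7.72. The values of these arrays did not overlap, but those up to 12 h are only bounds. Against the lowest detected signal of the 0 h array, the 45 h level was at least 2.39-fold higher. The 4 arrays from 36 h to 45 h were on average at least 2.10-fold above that bound. ID4 had a linear change of 2.30 ± 0.31 (adjusted p = 4.22e-06), and it was 1.57 with an offset of 50 and 0.87 without background correction.

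SMAD6 blocks signalling of the BMP receptors. Its log2 signal was 9.42 at 0 h and 8.79, 9.04 and 9.06 at 3, 6 and 9 h. It was 8.96, 8.96, 8.68 and 8.77 from 12 h to 21 h, 9.57, 9.82, 9.49 and 9.70 from 24 h to 33 h, and 10.05, 10.62, 9.90 and 10.32 from 36 h to 45 h. The 7 values from 3 h to 21 h were all below the 0 h value, and all 8 from 24 h on were above it. The linear change was 1.46 ± 0.20 (SE, adjusted p = 7.22e-06). With a term for a step from 21 to 24 h beside the cubic it was 0.47 (adjusted p = 0.523). SMAD6 was the 1 gene of the 10 with a departure from a straight line (adjusted p = 0.0248), against 19.3% of all probes. This departure did not pass without the 0 h array (adjusted p = 0.205) or without the 18 h array (adjusted p = 0.0617). It also did not pass with array weights (adjusted p = 0.0998). Without the 3 h array, ID2 (adjusted p = 0.0499) and ID3 (adjusted p = 0.0274) also departed from a straight line. Across the arrays r was 0.87 between SMAD6 and ID1 and 0.93 between SMAD6 and ID3. For BAMBI it was 0.89 with ID1 and 0.86 with ID3.

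SMAD7, which blocks TGF-beta as well as BMP receptors, was near the limit of detection. It was detected on 6 arrays, all between 24 h and 42 h. The log2 signal ran from 5.52 at 21 h to 6.65 at 39 h, and the groups of arrays before and after 24 h overlapped. At 39 h it was at least 1.52-fold above the detection bound of the 0 h array. Its linear change of 0.53 ± 0.24 (SE) did not pass (adjusted p = 0.0697). Leaving out the array at 6 h (adjusted p = 0.0427) or at 45 h (0.70, adjusted p = 0.0293) brought it past the threshold, as did array weights (0.63, adjusted p = 0.0341).

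BAMBI resembles a type I receptor but lacks a kinase. Its log2 signal was 12.87 at 0 h, 12.77, 12.56 and 12.90 from 3 h to 9 h and 13.41, 13.33, 13.21 and 13.33 from 12 h to 21 h. It was 13.31, 13.54, 13.71 and 13.44 from 24 h to 33 h and 13.64, 13.73, 13.92 and 13.89 from 36 h to 45 h. The 12 arrays from 12 h on lay above the 4 earlier ones, which is 1 set of arrays earlier than for the brighter ID1 probe, ID3 and SMAD6. The linear change was 1.17 ± 0.13 (SE, adjusted p = 2.74e-07), and the level at 45 h was 2.03-fold that at 0 h. SMAD3, which carries TGF-beta and activin signals to the nucleus, ranged only from 8.89 at 6 h to 9.54 at 39 h, 1.56-fold. Its linear change of 0.37 ± 0.12 (SE, adjusted p = 0.0210) did not pass without the 3 h array (adjusted p = 0.0506) or at 6 h (adjusted p = 0.0589). Cyclic loess gave 0.27 (adjusted p = 0.0760), and with the step from 21 to 24 h as a term SMAD3 had 0.37 (adjusted p = 0.466). The F-test of the SMAD3 course did not pass (adjusted p = 0.0977) and passed without the 0 h array (adjusted p = 0.0489) or that at 15 h (adjusted p = 0.0491) and under array weights (adjusted p = 0.0230).

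TGFB2, a secreted ligand, was the 1 gene of the 10 that fell. Its log2 signal was 9.08 at 0 h, 8.48, 8.66 and 8.58 from 3 h to 9 h, and 8.97, 8.90, 8.50 and 8.80 from 12 h to 21 h. It was 8.85, 8.88, 8.53 and 8.64 from 24 h to 33 h and 8.78, 8.43, 8.25 and 8.22 from 36 h to 45 h. The highest value was at 0 h and the lowest at 45 h, and the arrays in between overlapped. Over 45 h TGFB2 changed by -0.43 ± 0.15 (SE, adjusted p = 0.0272). The change did not pass without the array at 0 h (adjusted p = 0.0749), 39 h (adjusted p = 0.0514), 42 h (adjusted p = 0.0964) or 45 h (adjusted p = 0.115). With array weights TGFB2 had a change of -0.34 (adjusted p = 0.0722), with a straight line -0.43 (adjusted p = 0.0542) and with the step from 21 to 24 h as a term -0.49 (adjusted p = 0.425). The F-test of the TGFB2 course (adjusted p = 0.0288) did not pass without the 42 h array (adjusted p = 0.0953) or the 45 h array (adjusted p = 0.110), nor with no filter on dim probes (adjusted p = 0.0558).

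TGFBR2 is the type II receptor for TGF-beta. Its brighter probe (ILMN_2384241) had log2 signals of 11.40 at 0 h and 11.39 at 3 h, and on the 14 later arrays it lay between 10.54 and 11.03. The first 2 arrays thus lay above all others, and the step from 3 h to 6 h was -0.85, against a root mean square of 0.40 over all probes for that step. Its linear change was -0.25 ± 0.15 (SE, adjusted p = 0.179) and its F-test gave an adjusted p of 0.0732. Without the 6 h array the linear change of TGFBR2 was -0.38 (adjusted p = 0.0230) and the F-test gave an adjusted p of 0.0122. The F-test of TGFBR2 also passed with cyclic loess (adjusted p = 0.0247), and with array weights both passed (linear change -0.41, adjusted p = 0.0190, and F-test adjusted p = 0.0371). The dimmer TGFBR2 probe (ILMN_1744862) did not show this step. Its values were 7.44 at 0 h, 6.83 at 3 h and 7.79 at 6 h, and its linear change was -0.24 ± 0.20 (SE, adjusted p = 0.326).

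At 45 h, 6 of the 10 genes stood at least 1.7-fold above the 0 h array: ID1, ID2, ID3, ID4, SMAD6 and BAMBI. TGFB2 stood 1.81-fold below it. Over all probes, 13.7% were above and 13.5% below. Under a 2-fold threshold the count of genes fell from 7 to 3. These counts rest on the single arrays at 0 h and 45 h and have no replicate check.

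Adjacent time windows were compared to find when the genes moved, using 0 h (n = 1), 3 to 9 h (n = 3) and 12 to 21 h, 24 to 33 h and 36 to 45 h (n = 4 each). The error of the 0 h array was assumed to be that within the other windows. Between 0 h and the window from 3 to 9 h, ID2 rose by 0.77 ± 0.19 (SE, adjusted p = 0.0424), a comparison with a single array that has no replicate check, and 0 genes fell in limma's test. At an unadjusted p under 0.05, 1 gene was higher and 4 were lower. Over all probes 1.14% rose and 1.19% fell. The 4 were ID1 (-0.41, adjusted p = 0.150), ID3 (-0.30, adjusted p = 0.158), TGFB2 (-0.50, adjusted p = 0.267) and TGFBR2 (-0.55, adjusted p = 0.221). The early rise of ID2 did not pass without the array at 9, 15, 18, 30, 33, 39 or 42 h (adjusted p from 0.0529 to 0.0745). It also did not pass with median scaling (0.69, adjusted p = 0.0778), with no filter (adjusted p = 0.0517) or with array weights (0.89, adjusted p = 1.00). Without the 9 h array ID1 fell by 0.58 (adjusted p = 0.00200), and without the 3 h array TGFBR2 fell by 0.82 (adjusted p = 0.00126).

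From the 3 to 9 h window to the 12 to 21 h window, BAMBI rose by 0.58 ± 0.10 (SE, adjusted p = 0.000208), ID1 by 0.37 ± 0.10 (adjusted p = 0.00651) and ID3 by 0.20 ± 0.07 (adjusted p = 0.0363). No gene fell (0 at an unadjusted p under 0.05), and over all probes 14.8% rose and 12.9% fell. The BAMBI call held under every alternative run for the windows. These were other normalisations, background settings and filters, array weights and each array left out. A term for a step or for sets of arrays was not run for the windows. By the dimmer ID1 probe, ID1 did not pass (0.22, adjusted p = 0.612). The ID1 call also did not pass without the 3 h array (0.26, adjusted p = 0.0525) or the 6 h array (0.31, adjusted p = 0.0503). That of ID3 did not pass with median scaling (0.11, adjusted p = 0.436), cyclic loess (adjusted p = 0.0594) or no filter (adjusted p = 0.0691), nor without the array at 3 h (0.12, adjusted p = 0.235), 6 h (0.23, adjusted p = 0.0585), 12 h (0.18, adjusted p = 0.0844) or 15 h (0.17, adjusted p = 0.109). ID4 was not detected from 3 h to 12 h, so no difference is given for it here. SMAD3 had 0.24 (adjusted p = 0.0947) and passed without the 9 h array (0.31, adjusted p = 0.0490).

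From 12 to 21 h to 24 to 33 h, SMAD6 rose by 0.80 ± 0.14 (SE, adjusted p = 0.000696), ID1 by 0.59 ± 0.09 (adjusted p = 0.000224) and ID3 by 0.52 ± 0.07 (adjusted p = 4.33e-05). No gene fell (0 at an unadjusted p under 0.05), and over all probes 5.20% rose and 4.11% fell. By the brightest probes, these 3 calls held under every alternative run for the windows, which included no term for a step or for sets of arrays. The dimmer ID1 probe rose by 0.73 in this comparison and did not pass (adjusted p = 0.0944). The step between the normalised 21 h and 24 h arrays alone was 0.50 for ID1, 0.55 for ID3 and 0.80 for SMAD6. Its root mean square over all probes was 0.36. Before normalisation, signals at 21 h and 24 h were 25424 and 26779 for ID1 and 28399 and 30272 for ID3. They were 800 and 888 for SMAD6, and the median signal of the array was 361 at 21 h and 276 at 24 h. From 24 to 33 h to 36 to 45 h, ID3 rose by a further 0.35 ± 0.07 (SE, adjusted p = 0.00204) and SMAD6 by 0.58 ± 0.14 (adjusted p = 0.0158). No gene fell, with TGFB2 (-0.30, adjusted p = 0.293) as the 1 gene lower at an unadjusted p under 0.05, and over all probes 0.900% rose and 3.11% fell. The ID3 call held under every alternative run for the windows, again without a term for a step or for sets. That of SMAD6 did not pass without the array at 24 h (0.55, adjusted p = 0.0641), 30 h (0.53, adjusted p = 0.0607) or 39 h (0.45, adjusted p = 0.0657). BAMBI passed in this interval without the 30 h array (0.36, adjusted p = 0.0313) or the 36 h array (0.35, adjusted p = 0.0495), and ID1 without the 3 h array (0.27, adjusted p = 0.0476) or the 9 h array (0.27, adjusted p = 0.00505).

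**Figure D3:**
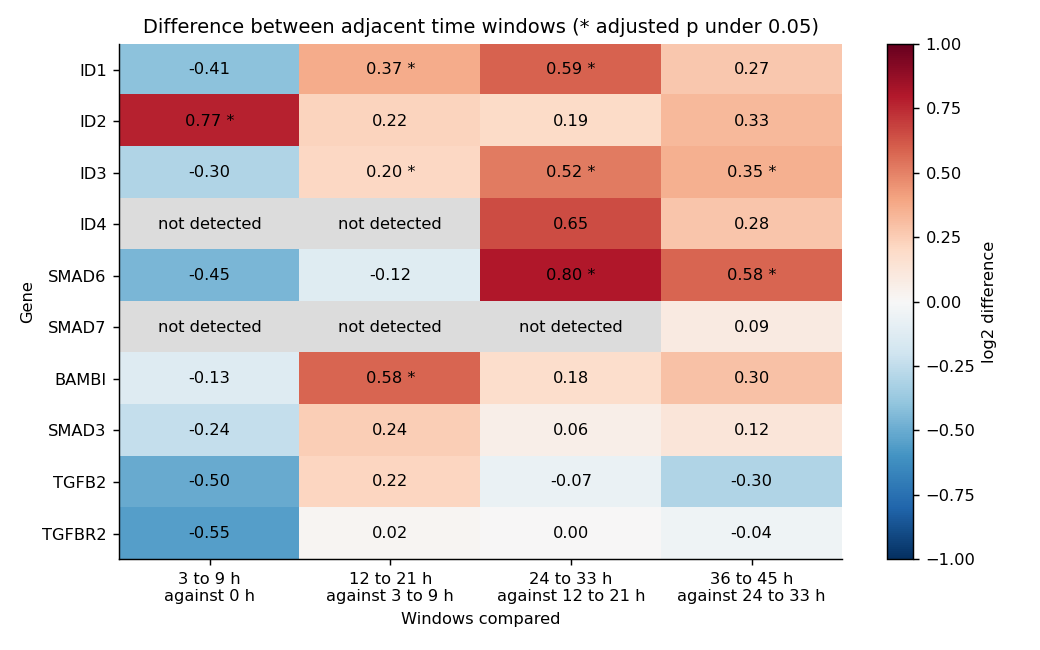
Log2 difference between adjacent time windows (columns) for each of the 10 genes (rows), by the brightest probe of a gene, with red for higher and blue for lower in the later window and an asterisk for an adjusted p under 0.05. Grey cells mark genes not detected on any array of one of the windows, and the first column compares with the single 0 h array. ID2 has the 1 call in that column, BAMBI has its call from 3 to 9 h to 12 to 21 h, and SMAD6 has its largest difference, 0.80, from 12 to 21 h to 24 to 33 h.

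The windows from 12 h on are also sets of 4 consecutive arrays, as are the arrays from 0 h to 9 h. The labels name no batch, and a difference between such sets of arrays and a change with time cannot be told apart for the later windows. Within these sets the last array minus the first was small for the brighter ID1 probe, at -0.06, 0.03, 0.07 and -0.00 in order of time, and for ID3, at -0.17, -0.12, 0.10 and 0.10. For the dimmer ID1 probe the differences were -0.23, -0.05, -0.05 and -0.69. These end points leave out movement inside a set, such as the step of the brighter ID1 probe from 0 h to 3 h (-0.63) and from 6 h to 9 h (0.48). For ID2 the same differences were 0.76, 0.48, 0.29 and 0.24, all upward, and for TGFB2 they were -0.49, -0.17, -0.21 and -0.56, all downward. For SMAD6 they were -0.36, -0.19, 0.13 and 0.27.

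With the set as a factor beside a straight line in hours, 0 of the 10 genes had a linear change in limma's test, with 1 higher and 1 lower at an unadjusted p under 0.05, and 0.900% of all probes did. The estimate was 0.05 for ID1, -0.10 for ID3 and -0.58 for SMAD6 within sets, against 1.41, 1.24 and 1.46 over all arrays. For ID2 it was 1.55 ± 0.68 (SE, adjusted p = 0.294), with a wider error than over all arrays. The line of ID4 (2.41 ± 1.34, SE, adjusted p = 0.424) rests in part on arrays on which it was not detected, and its size is not compared. For TGFB2 it was -1.89 ± 0.58 (SE, adjusted p = 0.128). BAMBI had 0.39 (adjusted p = 0.731), SMAD3 -0.64 (adjusted p = 0.569) and the brighter TGFBR2 probe -1.39 (adjusted p = 0.356).

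**Figure D4:**
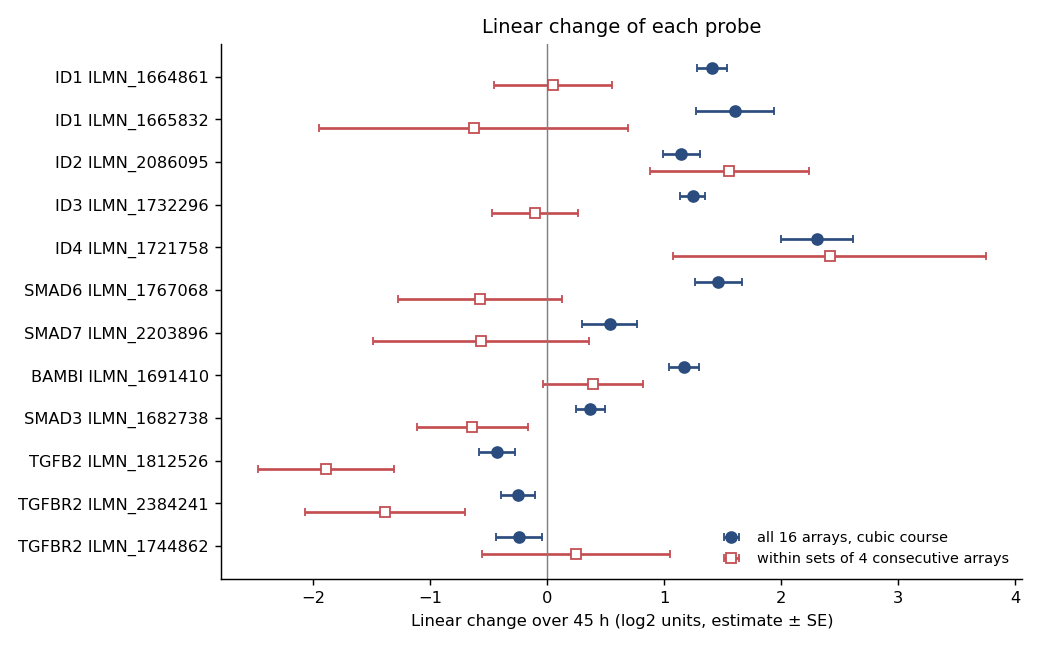
Linear change over 45 h in log2 units (x axis, estimate ± SE) of the 12 probes (y axis), from the cubic course over all 16 arrays (filled circles) and from a line within sets of 4 consecutive arrays (open squares). The values of ID4 and SMAD7 include arrays on which they were not detected. The brighter ID1 probe moves from 1.41 to 0.05 and ID3 from 1.24 to -0.10, while ID2 stands at 1.15 and 1.55.

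The other genes of the pathway were drawn from a list of 60 genes by role, of which 59 were on the array and 47 passed the filter. Of these, 25 had a time-dependent signal, 12 had a linear rise, 11 had a linear fall and 24 did not pass, and their median linear change was 0.04. Over all probes tested 51.3% were time-dependent, 26.0% rose and 21.7% fell, so the counts over the list are near the background. With the set as a factor, 2 of the 47 passed, against 0.900% of all probes tested. These were the targets TAGLN (adjusted p = 0.0326) and THBS1 (adjusted p = 0.0381), both lower. Up to 3 genes per role with the largest change are named here by rule, and others are named after their values were seen.

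Of 9 ligand genes tested, 2 rose, 3 fell and 4 did not pass, and the shares over all probes (26.0% rising, 21.7% falling) apply to each role. TGFB3 fell from a highest log2 signal of 9.40 to a lowest of 6.43, with a linear change of -2.65 ± 0.35 (SE, adjusted p = 4.20e-06). GDF15, a distant and stress-responsive member of the family, changed by -2.04 ± 0.20 (adjusted p = 1.09e-07), and BMP1, a protease rather than a ligand despite its name, by -1.38 ± 0.18. A dimmer BMP1 probe had -0.32 and did not pass (adjusted p = 0.408). BMP4, a ligand of the receptors that act through SMAD1 and SMAD5, rose by 1.00 ± 0.14. INHBB, a subunit of activin B, rose by 0.93 ± 0.12. The 4 that did not pass were BMP7 (0.16, adjusted p = 0.481), BMP2 (0.03), BMP6 (-0.07) and GDF11 (0.42). TGFB1 was not detected on any array.

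Of 8 receptor genes tested, 6 rose, 1 fell and 1 did not pass, against 26.0% rising and 21.7% falling over all probes. BMPR2, the type II BMP receptor, rose by 1.10 ± 0.13, the co-receptor TGFBR3 by 0.93 ± 0.11 and the activin receptor ACVR2A by 0.69 ± 0.09. The co-receptor ENG, at -0.64, was the 1 that fell. TGFBR1, the partner of TGFBR2, was not detected on any array. Of the other SMAD genes 4 were tested and 0 passed in either direction (0 at an unadjusted p under 0.05): SMAD1 had 0.46 ± 0.25 (adjusted p = 0.147), SMAD2 0.25, SMAD4 0.11 and SMAD5 -0.15. SMAD9 was not detected.

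Of 12 inhibitor genes tested besides SMAD6, SMAD7 and BAMBI, 2 rose, 2 fell and 8 did not pass. By their brightest probes PMEPA1, listed as TMEPAI on the array, rose by 0.75 ± 0.15 and the corepressor TGIF1 by 0.56 ± 0.14. Dimmer PMEPA1 probes disagreed. ILMN_2309156 rose by 0.68 (adjusted p = 0.00274) and ILMN_1657823 had 0.65 (adjusted p = 0.131). ILMN_1675858, detected on 3 arrays only, changed by -0.98 (adjusted p = 0.0025). The dimmer TGIF1 probes that were tested did not pass. The BMP antagonist NOG, detected on 3 arrays only, changed by -0.92 ± 0.24. Of 12 further target genes of TGF-beta or BMP, 2 rose, 4 fell and 6 did not pass. HEY1, a transcriptional repressor that Notch and BMP signals induce, rose by 1.97 ± 0.18, while the actin-binding TAGLN changed by -2.64 ± 0.68 and the matrix protein THBS1 by -2.31 ± 0.27. CDKN2B, a cell cycle inhibitor, rose by 1.12. COL4A1 changed by -1.40 and TGFBI by -0.77. Of the E proteins that ID proteins bind, TCF3 fell by 0.49 ± 0.14 (adjusted p = 0.00626), TCF12 had -0.05 (adjusted p = 0.704) and TCF4 was detected on 1 array.

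**Figure D5:**
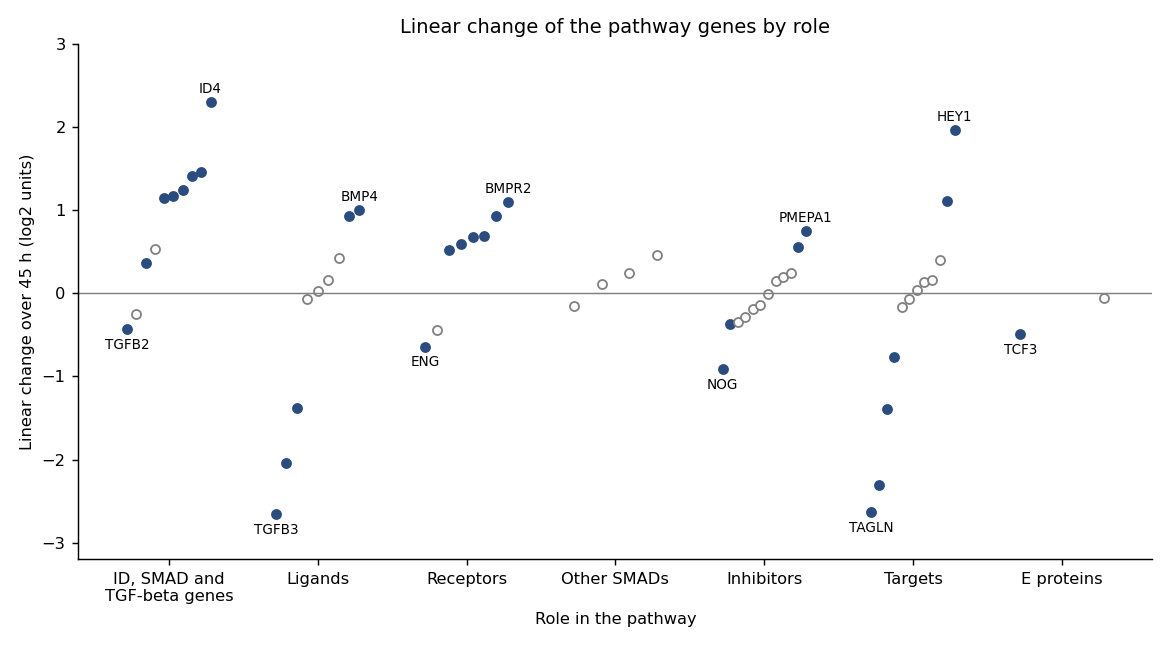
Linear change over 45 h in log2 units (y axis) of the tested genes by role (x axis), 1 point per gene, filled where the adjusted p was under 0.05 and open otherwise, with the extreme called genes named. The leftmost column holds the 10 ID, SMAD and TGF-beta genes described one by one, 7 of which rose, and the ligands run from TGFB3 at -2.65 to BMP4 at 1.00.

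The genes whose courses were most like those of the 10 were sought among the 12344 probes detected on all arrays, for the 7 with a time-dependent signal. Next to ID3, ID1 was most like ST3GAL4, a sialyltransferase (r = 0.96), and next to ID1, ID3 was most like FBLN2, a matrix protein (r = 0.96). SMAD6 was most like ADM, which encodes adrenomedullin (r = 0.94), and ID3 (r = 0.93). BAMBI was most like ESTRRA (r = 0.98) and MTIF3 (r = 0.97), and ID2 like SFT2D3 (r = 0.95) and the chemokine receptor gene ACKR3, listed as CMKOR1 (r = 0.94). ID4 was most like AP5M1, listed as C14orf108, and TUFT1 (both r = 0.94). For TGFB2 the highest values were lower, with AMMECR1 at 0.81 and SPRY4 at 0.79. All are Pearson r over 16 arrays that share time order, sets and normalisation.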

How the data were processed

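SUM225 cells were treated with 1 µM CP724,714, parallel cultures were taken every 3 h from 0 to 45 h, and amplified RNA of each was hybridised to 1 Illumina array. Samples were grouped by the time in their labels, with 1 replicate each. The authors deposited linear signal intensity values per probe without normalization. For every signal the authors also deposited a detection p-value. The quantile normalization of the study's methods is a later step, and the scanning software was not given in the sources used here. The median signal ran from 242 to 384 over the arrays, and 14110 to 15073 probes were detected.

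Signals were corrected and quantile normalised with neqc (offset 16) of limma 3.58.1 in R 4.3.3, which takes the background from the detection p-values. The offset reduces fold changes of dim probes. Probes detected on at least 3 arrays (16110) were fitted with lmFit, then eBayes (trend = TRUE), and p-values were two-sided and adjusted by Benjamini-Hochberg over all of them. A cubic in hours gave the F-tests of time dependence and curvature and the linear change, and a second fit compared windows. The error of a probe came from its scatter around the fit, which also holds any change the fit cannot follow. A gene with 2 probes was called by the brighter. Folds against arrays on which a probe was not detected were set against the lowest detected log2 value of that array and are lower bounds. The members and gene lists were chosen with earlier results of these data known. Named by rule were all probes of the 10 genes, up to 3 called genes per other pathway role, and the 2 genes with the highest Pearson r with each time-dependent gene. The fits were tested on simulated data with independent errors between arrays and no steps between sets. That run therefore says nothing about such steps in these data. All 10 genes matched the RefSeq tables of GRCh38.p14, from which promoter sequences were copied with Python 3.11.15. Figures were drawn with matplotlib 3.10.9.

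Alternatives were cyclic loess or median scaling in place of quantiles, an offset of 50, no background correction, detection required on all 16 arrays or on none, array weights, a straight line, a step between 21 and 24 h, sets of 4 arrays as a factor, 3 steps between sets beside the cubic, a threshold of 2-fold, the other probes, and each array left out in turn.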

Additional observations from a re-analysis of the deposited data

How the results depend on the processing

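Of 230 recomputed counts over the 10 genes, 198 stayed within 1.5 times the value reported, and of 310 recomputed linear changes of single probes, 280 kept their direction and side of the threshold, 18 lost the threshold, 5 gained it and 7 turned direction. These were SMAD7 with a step between 21 and 24 h (-0.33) and 6 under the set of 4 arrays as a factor: ID1 ILMN_1665832 (-0.63), ID3 (-0.10), SMAD3 (-0.64), SMAD6 (-0.58), SMAD7 (-0.57) and TGFBR2 ILMN_1744862 (0.24), none past the threshold. That setting left 0 genes with a linear change (0 rising, 0 falling), and 3 steps between sets beside the cubic left 1 time-dependent gene, TGFBR2 (adjusted p = 0.0311). A step between 21 and 24 h left 5 linear changes (BAMBI, ID1, ID2, ID3 and ID4; SMAD6, SMAD3 and TGFB2 lost theirs) and 0 falling. A straight line left 0 falling. Array weights gave 0 curved courses, 0 differences between 3 to 9 h and 0 h and 4 between 36 to 45 h and 24 to 33 h. Median scaling and no filter also left 0 between 3 to 9 h and 0 h. A 2-fold threshold left 3 genes at 45 h. Without each array in turn, the number of genes ranged from 0 to 2 for linear falls, from 0 to 3 for curved courses, from 0 to 2 for 3 to 9 h against 0 h, from 1 to 4 for 12 to 21 h against 3 to 9 h, and from 1 to 3 for 36 to 45 h against 24 to 33 h. The cause was not tested for these. Without each array, time-dependent genes numbered 6 to 8 and linear rises 6 to 8. No paired analysis was possible because the labels give every time a lone replicate. Signals near background limit ID4 and SMAD7, and detection on all 16 arrays leaves both out.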
